A study of Homo sapiens with 20 samples.

Results

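The wild-type arm of a chromatin immunoprecipitation (ChIP-seq) study in PC-3 cells is described here, with the binding sites of the transcription factor c-Myc (MYC) set against those of RNA polymerase II (POL2). PC-3 is an established human prostate cancer cell line. The series holds 20 samples, of which 12 have a list of peak summits, and the 6 described were chosen by their labels: 3 libraries of wild-type cells with an anti-MYC antibody and 3 of the same cells with an anti-POL2 antibody. The other 6 lists come from cells in which the kinase gene SLK was knocked out, and they enter at 1 point only. Every library came from PC-3 cells grown without a labelled treatment. The question put to the data was which POL2-bound promoters also hold a MYC summit, where MYC sits relative to the transcription start site (TSS) and to POL2, and where MYC is found without POL2.

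MYC binds DNA as a dimer with MAX, through a basic helix-loop-helix leucine zipper that prefers the E-box CACGTG, mostly in open chromatin at promoters. RNA polymerase II is recruited to the start site, begins to transcribe and commonly pauses just downstream of it, which is where ChIP-seq signal for the enzyme piles up. MYC is best known for acting on genes for ribosome production, translation, nucleotide synthesis and cell growth, and it is known to influence both the loading and the release of polymerase.

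A summit is the single base at which a called peak is highest. There were 365, 201 and 267 summits for MYC and 17126, 5047 and 9925 for POL2 in replicates 1 to 3. Most results below use the 352, 192 and 261 MYC summits and the 17078, 5015 and 9887 POL2 summits on chromosomes 1 to 22 and X. Each summit carries the authors' score, read as −log10 of a q-value, and scores served only to rank summits within a list. Read depth is unknown, and a gene without a summit in these lists is not read as unbound. Of 19970 protein-coding genes, 4557 had no WT POL2 summit within 100 kb of a TSS, among them LDHA (nearest summit at 124194 bp) and RPL24 (112349 bp), which most cell types express. The epithelial keratin genes KRT7, KRT8, KRT18 and KRT19 had POL2 in 3 of 3 libraries and EPCAM and CDH1 in 1. KLK2 and KLK3, which mark androgen-driven prostate cells, had POL2 in 0 of 3, while TMPRSS2, VIM, CDH2 and FN1 had it in 3. The 4 leukocyte markers had POL2 in 0 libraries.

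The E-box was common at MYC summits and rare at POL2 summits. CACGTG lay within 100 bp of 40.6%, 45.3% and 43.7% of MYC summits in replicates 1 to 3. It lay as close to 3.71%, 3.59% and 3.61% of POL2 summits, and at positions 2 kb from the MYC summits the share was 2.27%, 1.56% and 1.53%. The windows printed next are GRCh38 sequence at 7 MYC sites with POL2, chosen, with their values known, from the best-ranked genes and the gene groups described further on. Each is written 5′ to 3′ on the strand of the named gene, with CACGTG in capitals. CACGTG reads the same on both strands, so 1 match covers both. All 7 hold it, while windows of 30 bp at RPS24 and EIF3B, also among the best-ranked genes, held 0 copies and are not printed.
CCDC47, chr17:63773837-63773866, minus strand: cttgcctctggcCACGTGgtcccacacagc
DCAF4, chr14:72926653-72926712, plus strand: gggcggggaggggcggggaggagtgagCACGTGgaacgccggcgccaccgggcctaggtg
RPSA, chr3:39406902-39406931, plus strand: gcctgcggcccgCACGTGgccaggctcggg
NCL, chr2:231463840-231463869, minus strand: ctggcaagccgaCACGTGgtgggccccgga
NPM1, chr5:171388547-171388606, plus strand: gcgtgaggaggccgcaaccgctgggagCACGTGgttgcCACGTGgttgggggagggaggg
NME1, chr17:51153581-51153610, plus strand: agtgctgcgaacCACGTGggtcccgggcgc
PAICS, chr4:56436432-56436491, plus strand: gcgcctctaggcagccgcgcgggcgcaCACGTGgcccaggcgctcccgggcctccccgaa
At RPSA the nearest CACGTG lay 2 bp from the median MYC summit, at DCAF4 7 bp, at NCL 24 bp and at NME1 32 bp. The NPM1 window holds 2 copies. PAICS and PPAT, enzymes of purine synthesis, share this promoter in opposite directions and thus share the site.

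The next 6 windows are at MYC sites with no WT POL2 summit within 1 kb. They are shown because the same hexamer occurs there, close to the MYC summit, in 5 of the 6.
GEMIN7, chr19:45079151-45079180, plus strand: ccagcccgcgacCACGTGgggcagtggcgg
MLLT1, chr19:6280190-6280249, minus strand: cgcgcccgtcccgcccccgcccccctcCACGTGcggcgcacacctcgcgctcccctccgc
CCDC88C, chr14:91418101-91418160, minus strand: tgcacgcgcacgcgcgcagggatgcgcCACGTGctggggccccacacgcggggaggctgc
CATSPERD, chr19:5773843-5773902, plus strand: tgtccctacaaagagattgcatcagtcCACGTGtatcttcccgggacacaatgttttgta
RASGRF1, chr15:78979764-78979823, minus strand: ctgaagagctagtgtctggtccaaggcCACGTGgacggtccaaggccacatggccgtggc
POLR3A, chr10:78029947-78030006, minus strand: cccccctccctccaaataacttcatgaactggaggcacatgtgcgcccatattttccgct

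Nearly every coding gene with MYC at a promoter also had POL2 at one, and few genes with POL2 had MYC. A coding gene was called POL2-bound when at least 2 of the 3 POL2 lists had a summit within 1 kb of any of its TSSs, and the same rule was used for MYC. There were 7080 POL2-bound genes and 230 MYC genes, and 216 genes were both. These 216 were 93.9% of the MYC genes and 3.05% of the POL2-bound genes, against 1.15% of all coding genes with MYC. With a MYC summit in at least 1 list the shares were 6.6% of POL2-bound genes and 2.59% of all coding genes. Because neighbouring and opposed genes share sites, the 216 genes rest on 162 distinct MYC sites. The 2 proteins need not be at the same start of a gene. With 1 TSS per gene, both lay within 1 kb of it in 183 of the 216. At HMGB1, in MYC and POL2 replicate 1, MYC lay at −151938 bp and POL2 at +70 bp of that TSS. Of the MYC genes, 164 had POL2 in 3 of 3 lists, 8 in 1 and 6 in 0.

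The share of genes with MYC went with the number of POL2 lists that held the gene. It was 4.49% of the 3656 genes in 3 POL2 lists, 1.52% of the 3424 genes in 2, 0.314% of the 2551 genes in 1 and 0.058% of the 10339 genes in 0. With a MYC summit in at least 1 list these shares were 9.38%, 3.62%, 1.37% and 0.155%, in the same order. Taken by MYC library, 4.77%, 2.70% and 3.56% of POL2-bound genes held a MYC summit, against 0.126%, 0.0580% and 0.0580% of genes with POL2 in 0 lists. All 3 MYC libraries thus had the higher share at POL2-bound genes, with a mean difference of 3.6 ± 1.01 percentage points (SD, n = 3; exact two-sided sign-flip permutation p = 0.25, adjusted 0.278 over the 10 tests made). With 3 libraries and 8 sign flips 0.25 is the smallest p, and with 20 relabellings of 3 against 3 it is 0.1, so none of the 10 tests could fall below 0.05. The series text calls the 3 libraries of a group biological replicates, and p-values measure only the spread between them. The count of 216 fell to 122 without MYC replicate 1 and to 126 without MYC replicate 3, and the count of POL2-bound genes to 3676 without POL2 replicate 1 and 3779 without POL2 replicate 3.

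MYC summits also lay close to POL2 summits when no gene was assigned. A POL2 summit of any WT library lay within 1 kb of 91.8%, 92.2% and 93.1% of the MYC summits, and within 250 bp of 65.9%, 62.5% and 64.0%. With every MYC position moved by 10 kb the shares were 10.7%, 12.2% and 10.2% at 1 kb and 4.12%, 3.65% and 3.83% at 250 bp. Most MYC summits lay within 1 kb of a coding TSS, and the moved positions were not matched for that. The contrast thus does not separate closeness to POL2 from location at promoters. The plot of this share against distance shows the 3 MYC libraries nearly on top of each other, with little gained between 1 kb and 5 kb.

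**Figure D1:**
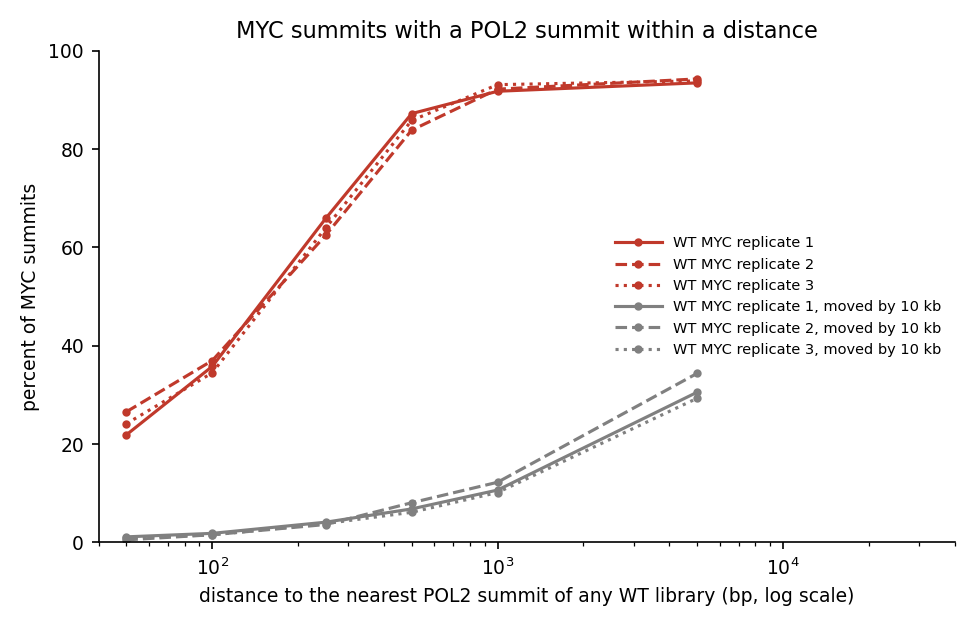
Percent of WT MYC summits (vertical axis) with a POL2 summit of any WT library within a given distance (horizontal axis, bp, log scale). Red lines are the 3 MYC libraries and grey lines the same positions moved by 10 kb; at 1 kb the red lines lie at 91.8% to 93.1% and the grey lines at 10.2% to 12.2%.

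Genes with MYC stood higher in the POL2 ranking than genes of the same POL2 list without it. Each gene was given the percentile of its best promoter summit within a POL2 list, with 0 the best-scored. All genes with a promoter summit in that list were used, including genes not called POL2-bound. Those with MYC in 0 of 3 lists numbered 8982, 3470 and 6603. In POL2 replicates 1 to 3 the median percentile of genes with MYC was 12.2, 29.2 and 17.2, and that of genes with MYC in 0 of 3 lists was 29.1, 40.5 and 37.2. Genes with MYC in 1 of 3 lists fell between, at 14.2, 32.2 and 24.0. The MYC genes ranked better in all 3 POL2 libraries, by 16.1 ± 4.41 percentile points on average (SD, n = 3; exact sign-flip permutation p = 0.25, adjusted 0.278). The best 10% of summits held 44.4%, 19.8% and 33.2% of the MYC genes present in each list, and 17.5%, 12.3% and 13.3% of the genes without MYC. POL2 replicate 2, with the shortest list, had the smallest gap.

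Cut into deciles by POL2 rank, the share of genes with MYC was 5.80% in the best-ranked decile of POL2 replicate 1 and 0.422% in the last. The corresponding shares were 7.05% and 2.35% in replicate 2 and 6.93% and 0.707% in replicate 3. The fall was not even, as the plot of MYC share by POL2 rank shows: in replicates 2 and 3 the middle deciles rose again. Among the 77 genes with MYC and POL2 in all 3 lists each, the MYC and POL2 percentiles had a Spearman rho of −0.0659 across genes, which share the same libraries and are not independent. A better POL2 rank thus went with having a MYC summit, while within these 77 genes there was almost no relation between the 2 ranks.

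**Figure D2:**
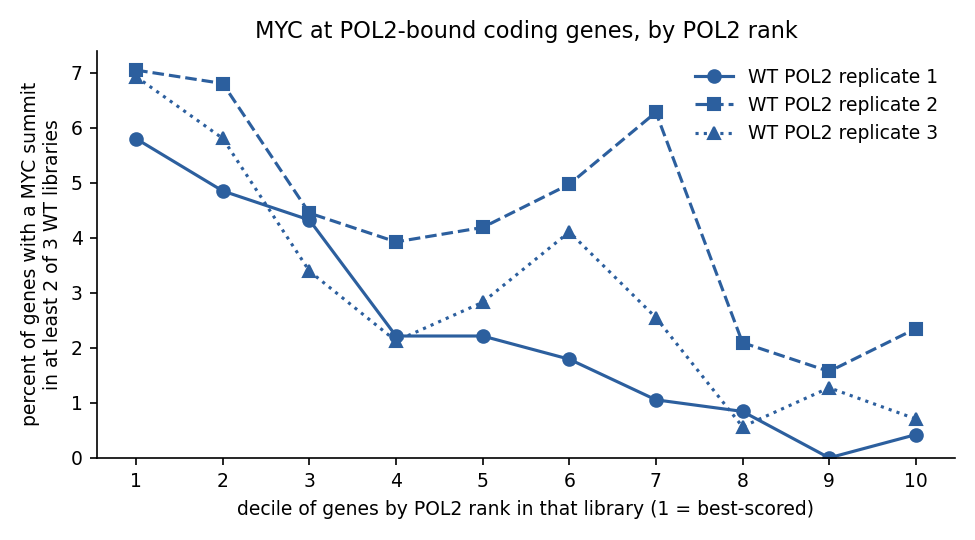
Percent of coding genes with a MYC summit in at least 2 of 3 WT libraries (vertical axis) for genes cut into deciles by POL2 rank in each of the 3 WT POL2 libraries (horizontal axis, 1 is the best-scored decile). The first decile holds 5.80%, 7.05% and 6.93% and the last 0.422%, 2.35% and 0.707%, with a second rise in the middle deciles of replicates 2 and 3.

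MYC summits lay at promoters more often than POL2 summits, and were spread more widely within them. Of the MYC summits 86.1%, 87.0% and 86.2% lay within 1 kb of a coding TSS (mean 86.4% ± 0.487, SD, n = 3), against 57.2%, 71.7% and 69.2% of the POL2 summits (66.0% ± 7.73, SD, n = 3). The groups did not overlap, and the difference of 20.4 percentage points had an exact two-sided permutation p of 0.1 (adjusted 0.278). Its size depended on which summits were kept. It was 6.41 points with lists cut to equal length within each antibody and 9.01 with scores of at least 5, in the same direction. That cut was to the shortest list of the same antibody, 201 summits for MYC and 5047 for POL2. The MYC and POL2 lists were thus not made equal to each other. Distance was then measured to 1 TSS per gene. The median absolute distance was 190, 213 and 183 bp for MYC and 76 bp in each POL2 library, a difference of 119 bp (exact permutation p = 0.1, adjusted 0.278). Measured to the nearest of all annotated transcript starts, the difference was 37 bp. Chromatin was sheared to a target of 200 to 1000 bp, so the MYC distances are at or below the size of a fragment.

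POL2 summits were concentrated just inside the gene: 51.8%, 49.0% and 51.3% lay 0 to 100 bp downstream of the TSS, with medians of +43, +41 and +42 bp. MYC had nearly the same median, +38, +29 and +35 bp, but 18.1%, 21.7% and 16.9% in that window. Its middle 50% of summits ran from −138 to +211 bp in replicate 1, from −213 to +204 bp in replicate 2 and from −152.5 to +236.5 bp in replicate 3. Upstream of the TSS lay 43.0%, 43.9% and 43.5% of the MYC summits and 27.1%, 29.8% and 28.0% of the POL2 summits. MYC exceeded POL2 in each case, by 15.2 percentage points on average (exact permutation p = 0.1, adjusted 0.278).

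**Figure D3:**
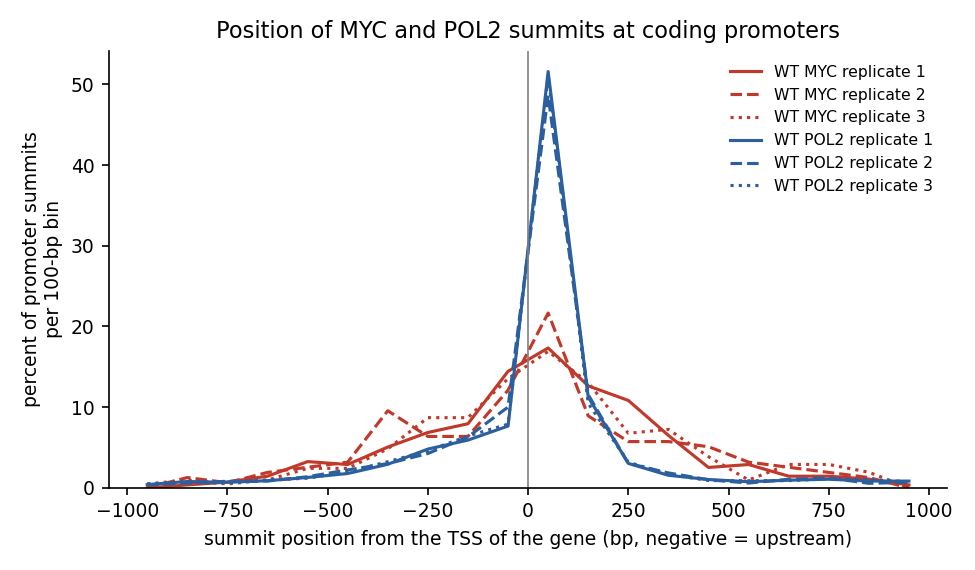
Percent of promoter summits per 100-bp bin (vertical axis) by position from the TSS (horizontal axis, bp, negative is upstream) for the 3 WT MYC (red) and 3 WT POL2 (blue) libraries. POL2 forms a narrow peak just downstream of the TSS in all 3 libraries, while MYC is low and broad on both sides.

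The median position of POL2 was similar with and without MYC, and POL2 summits at MYC genes were closer to the TSS. At genes with MYC the median POL2 summit lay at +39, +39 and +42 bp in replicates 1 to 3, and at genes with MYC in 0 of 3 lists at +43, +41 and +42 bp. Its median absolute distance from the TSS was 57, 69 and 65 bp at genes with MYC and 77 bp in each library at genes without. The share of POL2 summits upstream of the TSS was 24.6%, 25.9% and 20.2% with MYC and 27.2%, 30.0% and 28.2% without. The share 0 to 100 bp downstream was 61.7%, 53.8% and 59.0% with MYC and 51.5%, 48.9% and 50.9% without, so that all 3 libraries differed in the same direction in these 3 measures. These values were computed after the other results were known and were not tested.

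Measured from POL2 instead of the TSS, MYC lay more often on the downstream, gene-body side. POL2 summits of the WT libraries were joined into POL2 sites, and a promoter MYC summit was placed upstream or downstream of the nearest site on the gene's strand. In MYC replicate 1, 141 summits were downstream and 98 upstream, in replicate 2 75 and 56, and in replicate 3 112 and 65. All 3 libraries leaned to the downstream side, with the upstream share 9.84 ± 3.10 percentage points below an even split (SD, n = 3; exact sign-flip permutation p = 0.25, adjusted 0.278). Without promoters that had coding TSSs on both strands, where the side is ambiguous, the difference from an even split was smaller, −6.78 points. Over all promoters the median MYC position was 63, 32.5 and 78 bp downstream of POL2. The median separation on either side was 180, 191 and 197 bp, and 27.2%, 28.0% and 28.8% of the summits were within 100 bp of the POL2 site. Close pairs were thus a minority in all 3 libraries, and the plot of MYC position around POL2 sites shows both flanks filled.

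**Figure D4:**
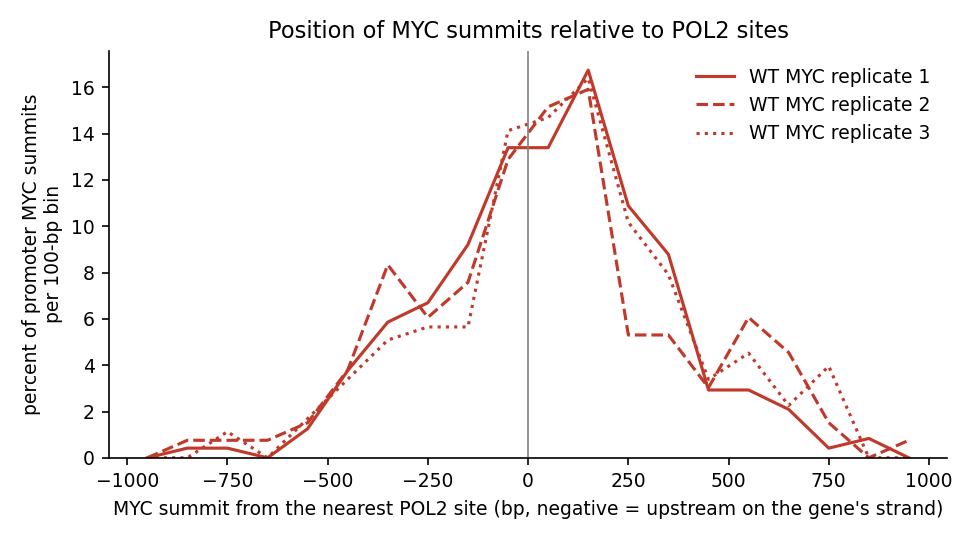
Percent of promoter MYC summits per 100-bp bin (vertical axis) by position from the nearest WT POL2 site (horizontal axis, bp, negative is upstream on the gene's strand) for the 3 WT MYC libraries. More summits lie to the right of 0 in each library (141 against 98, 75 against 56 and 112 against 65).

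MYC summits with an E-box lay farther from POL2 than those without. The median separation was 259, 284.5 and 219 bp for summits with CACGTG within 100 bp, and 156, 158.5 and 170 bp for the others. The 2 kinds did not overlap across libraries. The summits with CACGTG also ranked better within the MYC lists, at a median percentile of 39.6, 39.5 and 39.7 against 55.8, 61.5 and 57.5. These splits were made after the main results and are given without a test.

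MYC summits at promoters had a POL2 site within 250 bp more often than MYC summits elsewhere. The shares were 50.5%, 47.3% and 49.3% at promoters and 32.7%, 40.0% and 30.6% elsewhere. The difference was 14.6 ± 6.37 percentage points (SD, n = 3; exact sign-flip permutation p = 0.25, adjusted 0.278). It was 27.5 points with POL2 counted within 500 bp, and 1.36 points within 100 bp, where the libraries differed in sign (exact sign-flip permutation p = 0.75). Of the 201 MYC sites present in at least 2 of 3 lists, 26 lay more than 1 kb from a coding TSS, and 21 of those 26 had a POL2 summit within 1 kb.

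The promoters with MYC held the E-box more often than other POL2-bound promoters. CACGTG occurred within 500 bp of the TSS in 54.6% of the 216 genes (118 genes), in 39.0% of POL2-bound genes with MYC in 1 list and in 18.9% of those with MYC in 0. The share over all coding genes was 18.3%. Read the other way, 8.04% of the 1467 POL2-bound genes with the hexamer and 1.75% of the 5613 without it had MYC. A coding TSS on the opposite strand within 1 kb was present at 27.8% of the MYC genes and 17.7% of the genes with MYC in 0 lists. The observed-to-expected CpG ratio from 250 bp before to 50 bp after the TSS had a median of 0.904, 0.904 and 0.900 for genes with MYC in each library. That of POL2-bound genes without MYC was 0.875, a difference of 0.0277 that was small but of 1 sign in all 3 libraries (exact sign-flip permutation p = 0.25, adjusted 0.278).

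Among the 11 gene lists, splicing factors, ribosome biogenesis, nucleotide synthesis and ribosomal protein genes had the highest shares with MYC. A group is described by the share of its POL2-bound members with MYC, beside 3.05% of all POL2-bound genes, and no group was tested against another. The shares were 47.1% of splicing factors (8 of 17), 37.5% of ribosome biogenesis genes (6 of 16), 30.4% of nucleotide and polyamine synthesis genes (7 of 23) and 23.3% of cytosolic ribosomal proteins (17 of 73). Translation factors had 3 of 17, chaperones 2 of 15, glycolysis 1 of 9, cell cycle genes 1 of 11 and the MYC partner network 1 of 7. The subunits and pausing factors of POL2 had 0 of 12 and circadian E-box genes 0 of 9. The median POL2 percentile of POL2-bound members was 7.91 for splicing factors, 8.83 for ribosomal proteins, 18.1 for ribosome biogenesis and 34.2 for nucleotide and polyamine synthesis. The highest share of MYC genes in any POL2 decile was 7.05%. The part of POL2 rank in the group shares was not tested.

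**Figure D5:**
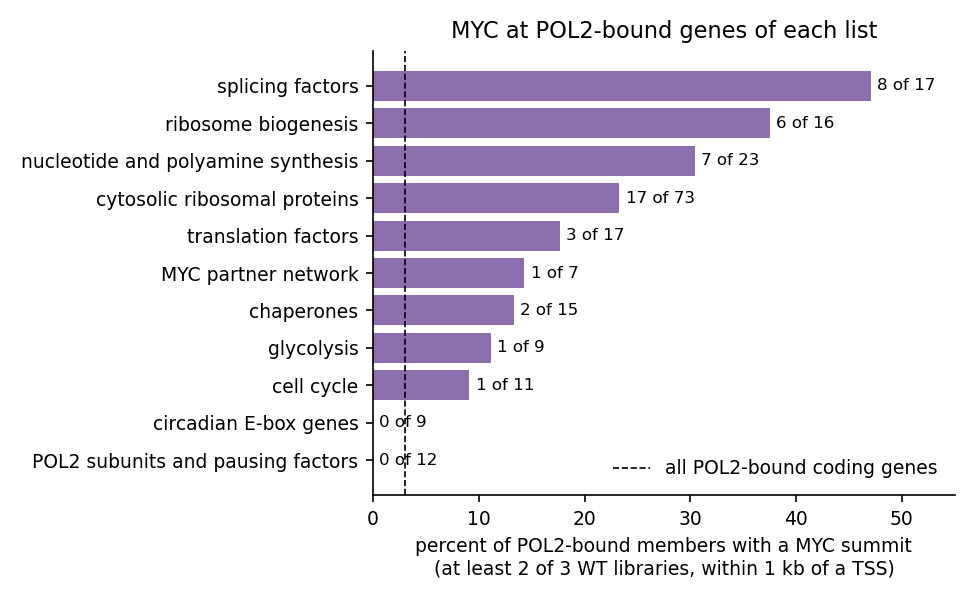
Percent of POL2-bound members of each gene group with a MYC summit in at least 2 of 3 WT libraries (horizontal axis), with the counts beside the bars and a dashed line at 3.05%, the share of all POL2-bound coding genes. Splicing factors (8 of 17) lie highest, and POL2 subunits and circadian genes are at 0.

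Most ribosomal protein genes with both proteins had POL2 near the start site and MYC in the first part of the gene, and 2 other lists leaned the same way. MYC lay downstream of POL2 in 14 of 17 of them, by a median of 119 bp, against 105 of the 183 genes with MYC and POL2 in which both could be placed. The 183 include these 17. Opposed genes that share a site enter the 183 once on each side, such as YARS1 at 309 bp and S100PBP at −309 bp. The 2 counts are thus not like for like, and the difference was not tested. MYC also lay downstream of POL2 in 5 of 6 ribosome biogenesis genes and in 5 of the 6 splicing factors that could be placed. The median MYC position there was 549.75 and 222.5 bp downstream of POL2. For nucleotide and polyamine synthesis the count was 4 of 7, and for translation factors 1 of 3. RPS24, a small-subunit protein (ENSG00000138326.21, chromosome 10, 78033760 to 78056813), had MYC at +182, +231 and +124 bp and POL2 at +65, +63 and +52 bp. It stood at ranks 16, 17 and 13 in the MYC lists and 133, 118 and 126 in the POL2 lists. RPSA, the laminin receptor and small-subunit protein, had MYC at +198, +204 and +177 bp, on the E-box printed above, and POL2 at +22, −11 and +25 bp. RPL14, of the large subunit, had MYC at +232, +235 and +183 bp with POL2 at +25, −8 and +32 bp. At these 3 genes the MYC and POL2 positions did not overlap between libraries. RPL10A, RPL5 and RPL8, all of the large subunit, also had MYC in 3 of 3 lists. A further 11 POL2-bound members had MYC in 1 list and 45 in 0.

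Among the ribosome biogenesis genes, 2 genes for abundant nucleolar proteins had MYC well inside the gene and POL2 at its start. NCL (nucleolin) had MYC at +591, +611 and +606 bp and POL2 at +62, +44 and +28 bp. NPM1 (nucleophosmin) had MYC at +728, +725 and +746 bp, over the window with 2 E-boxes, and POL2 at +38, +49 and +44 bp. The MYC positions of each gene varied by about 20 bp between libraries, much less than their distance from POL2. GNL3 (nucleostemin), POLR1B (a subunit of RNA polymerase I), WDR43 and BYSL made up the rest of the 6. RRS1 had MYC in 3 of 3 lists at ranks 93, 72 and 64 but POL2 in replicate 1 only, and so was not counted as POL2-bound.

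In nucleotide and polyamine synthesis the best MYC rank was at NME1, a nucleoside diphosphate kinase gene with a low POL2 rank. NME1 ranked 3, 3 and 8 in the MYC lists, with summits at +4, +21 and −10 bp, while its POL2 summits ranked 4797 and 4637 in replicates 1 and 2 and were not in the list of replicate 3. ODC1, the ornithine decarboxylase gene that starts polyamine synthesis, showed the reverse. It ranked 189, 91 and 223 for MYC, at +234, +357 and +233 bp, and 223, 161 and 265 for POL2, at +36, +35 and +40 bp. NME2, PPAT, PAICS, GART and MTHFD2 were the other members with both. PPAT and PAICS, counted as 2 genes, rest on 1 site at MYC ranks 22, 44 and 62.

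Among splicing factors, SRSF6 had both proteins high in the lists. This serine/arginine-rich factor ranked 21, 11 and 30 for MYC, at +335, +328 and +298 bp, and 98, 93 and 85 for POL2, at +39, +33 and +42 bp. SRSF7 (MYC ranks 174, 182 and 230) and HNRNPA1 (183, 146 and 175) had MYC in all 3 lists at a lower rank, and both had POL2 within 63 bp downstream of the TSS. HNRNPU had MYC at +1332, +1261 and +1404 bp from the TSS used for distances, which is within 1 kb of another of its annotated starts. HNRNPA2B1, SNRPD1, SRSF1 and SNRPE completed the 8.

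Translation factors, glycolysis and the cell cycle list had fewer members with both proteins (3, 1 and 1). PABPC1, the cytoplasmic poly(A)-binding protein gene, ranked 28, 32 and 27 for POL2 at +34, +29 and +31 bp, and 18, 88 and 26 for MYC. Its MYC summits lay upstream, at −493, −505 and −488 bp, on the other side of the start from those of NCL and NPM1. ENO1 (enolase) was the glycolysis gene with MYC in 2 lists, at ranks 30 and 36 in replicates 1 and 2. GAPDH and HK2 had MYC in 1 list each. MCM7, a subunit of the replicative helicase, was the cell cycle gene with MYC, at ranks 47, 20 and 20, while its POL2 ranks were 3215, 4157 and 3701.

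MYC was found at 0 of 12 POL2-bound polymerase and pausing genes and at 1 of 7 of the MYC network, beside 3.05% of all POL2-bound genes, and nothing particular to these lists is read from such counts. The POL2-bound pausing factor gene HEXIM1 (POL2 ranks 33, 61 and 33) and POLR2L, a polymerase subunit gene (281, 300 and 292), had MYC in 0 lists. The MYC gene itself ranked 77, 209 and 82 for POL2 with MYC in 0 lists. MXD3, an antagonist that competes for MAX, was the network member with MYC in 2 lists, at ranks 60 and 88 in replicates 2 and 3, and MXD1 had it in 1. POLR2A, the gene of the largest POL2 subunit, had no summit of either kind at its promoter.

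Of the genes with both proteins in all 3 lists, those best ranked for MYC were not those best ranked for POL2. CCDC47, which encodes a membrane protein of the endoplasmic reticulum, and DDX42, a helicase gene on the opposite strand, shared a site at MYC ranks 7, 4 and 4 and POL2 ranks 1171, 942 and 698. At CCDC47 (ENSG00000108588.15, chromosome 17, 63745255 to 63776351) MYC lay at −266, −279 and −270 bp and POL2 at +53, +137 and +148 bp. MFSD3 followed at MYC ranks 5, 6 and 6 and POL2 ranks 5446, 2813 and 1664, and EIF3E, a translation initiation factor subunit, at MYC ranks 10, 7 and 7. At EIF3E the 2 proteins were at different annotated starts, with MYC at +170, +136 and +159 bp and POL2 at −194990, −195028 and −194980 bp of the TSS used for distances. METTL1, a tRNA methyltransferase gene, EEF1AKMT3, a lysine methyltransferase gene for an elongation factor, and ENSG00000257921 shared a site at MYC ranks 92, 13 and 14. The last 2 by this ordering were DCAF4 (MYC ranks 17, 37 and 15, at +211, +193 and +257 bp) and EIF3B, also an initiation factor subunit (8, 30 and 18, at +2, +5 and −63 bp). Of the 10 genes, RPS24 was the one with POL2 ranks under 200.

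Genes with MYC in 0 of 3 lists were also found near the top of the POL2 lists. In the best-ranked decile of POL2 replicates 1 to 3, only 5.80%, 7.05% and 6.93% of genes had MYC in at least 2 lists. Genes without it are thus common there. The 10 best by POL2 rank among genes with POL2 in 3 lists and MYC in 0 included WDR74, TAF12, CLASP1, VCL, DKK1, H3-3B, VMP1, BOLA1 and H2AC20. The summit assigned to WDR74 had rank 1 in each POL2 list, 187 bp from its nearest annotated TSS. From the WDR74 TSS used for distances it lay at −2033, −2029 and −2032 bp in POL2 replicates 1 to 3. VCL (vinculin), at ranks 19, 20 and 21, DKK1, a secreted Wnt inhibitor, at 22, 30 and 24, and H3-3B, a histone H3.3 gene, at 27, 26 and 28, had POL2 between +29 and +49 bp of the TSS. For some of the 10 a nearer start was annotated: the summit at CLASP1 lay 132 bp from RNU4ATAC, a small nuclear RNA gene, and that at TAF12 98 bp from a long non-coding RNA. BOLA1 and H2AC20 share 1 summit, 39 bp from the TSS of H2AC20, a histone H2A gene.

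MYC without POL2 was rare. Of the 201 MYC sites in at least 2 lists, 12 (5.97%) had no WT POL2 summit within 1 kb, 7 of the 12 lay within 1 kb of a coding TSS and 9 held CACGTG within 100 bp. The number was 26 without POL2 replicate 1, the longest POL2 list, and 5 without MYC replicate 1 or 7 without MYC replicate 2. MLLT1, a gene of the super elongation complex (ENSG00000130382.9, chromosome 19, 6210381 to 6279975), had MYC at −244, −258 and −297 bp in all 3 lists, at ranks 176, 34 and 228, with the nearest WT POL2 summit at 6383 bp. CCDC88C had MYC at −333, −282 and −336 bp, at ranks 300, 156 and 112, with POL2 at 92159 bp. POLR3A, the largest subunit of RNA polymerase III, had MYC at −531, −361 and −462 bp, at ranks 133, 143 and 114, and POL2 at 3869 bp. These 3 genes had a MYC summit upstream of the TSS in every list.

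GEMIN7, of the survival motor neuron complex, had MYC at −105 and −76 bp in replicates 1 and 2, at ranks 77 and 53, with POL2 at 13549 bp. MARK4 is counted with it because another of its annotated starts is close by. RASGRF1 had MYC in replicates 1 and 3 at ranks 94 and 192, inside an intron and near an alternative start. Outside coding promoters, the site at CATSPERD lay in an intron, 1366 bp upstream of a TSS, at ranks 118 and 58 in replicates 1 and 3. The best-ranked of the 12, at ranks 10 and 23 in replicates 2 and 3, was intergenic, 6040 bp from TNNI1, had no CACGTG within 100 bp and lay 24792 bp from POL2.

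MYC summits without POL2 were not set apart in rank. The median MYC percentile of summits with WT POL2 within 1 kb was 49.5, 51.5 and 50.8 in replicates 1 to 3 and that of summits without was 58.5, 46 and 44, so that the sign differed between libraries (mean difference 1.07 ± 8.80, SD, n = 3; exact sign-flip permutation p = 1). Their E-box share was higher in each library: 65.5%, 53.3% and 44.4% of the 29, 15 and 18 summits without POL2, against 38.4%, 44.6% and 43.6% of those with it. The Wilson 95% intervals for the summits without POL2, which cover counting error only, were 47.3% to 80.1%, 30.1% to 75.2% and 24.6% to 66.3%, and in replicates 2 and 3 they included the share with POL2. The mean difference was −12.2 ± 13.5 percentage points, smaller than its spread (exact sign-flip permutation p = 0.25, adjusted 0.278), and it was −2.39 without POL2 replicate 2 and −4.76 without MYC replicate 1. It was also smaller with scores of at least 5 (−2.77), with CACGTG within 50 bp (−4.05) and with POL2 within 250 bp (−5.78).

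The POL2 lists of the SLK knockout cells were used to see whether these sites lack POL2 in other libraries too. Of the 12 sites, 5 had an SLK-KO POL2 summit within 1 kb in at least 1 of 3 libraries, 2 in all 3 and 7 in none. The 2 sites with it in all 3 were GEMIN7, with SLK-KO POL2 at 11, 8 and 43 bp, and SCAP, at 555, 159 and 215 bp. The CCDC88C site had it at 435 and 576 bp in SLK-KO replicates 1 and 2. The POLR3A site had it at 202 and 503 bp in replicates 2 and 3, and the site near TNNI1 at 180 bp in replicate 3. Of the 189 MYC sites with WT POL2, 186 (98.4%) had SLK-KO POL2 within 1 kb. Genotype and list length cannot be told apart here, and the difference between the genotypes was not tested.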

How the data were processed

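The labels give ChIP-seq of WT PC-3 cells with anti-MYC and anti-POL2 antibodies, sequenced as 50 bp paired-end reads and run through nf-core/chipseq 2.1.0 against GRCh38.p14. Tools in the submitters' processing notes include Trim Galore 0.6.7, BWA 0.7.18-r1243, Picard 3.2.0 and MACS3 3.0.1. The control library and the caller's options are not given in the sources used here. Each deposited list holds 1-bp summits called in 1 library, with a score taken to be −log10 of a q-value because the lowest scores lie just above that of q = 0.05. The lists hold no counts or widths, so depth is unknown.

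Summits were annotated with GENCODE release 44. A promoter summit lay within 1 kb of a coding TSS, and a gene or site was called in at least 2 of 3 libraries. Summits of an antibody at most 250 bp apart formed a site. Distances used 1 TSS per gene. MYC and POL2 libraries were compared by exact two-sided permutation (20 relabellings), and contrasts within a library by exact sign flips (8), with Benjamini-Hochberg adjustment over the 10 tests. Gene calls and the TSS distance were checked on simulated MYC lists, and the permutation and sign-flip p-values on made-up numbers. Sites and sides were not checked in this way. IgG and Input libraries were not used, and SLK-KO POL2 lists only for MYC sites without POL2.

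Members and gene lists were chosen with earlier results of these data known. Named were, by best median rank, the 10 genes with both proteins in 3 of 3 libraries, 10 genes with POL2 in 3 and MYC in 0, up to 10 genes and up to 10 sites with MYC and no POL2, and from each list examples in most MYC libraries and examples with POL2 alone. Further list members were named after their values were seen. Some items that the rule selects are not reported here. Same-numbered MYC and POL2 libraries did not deviate together (correlations −0.0483, −0.0342 and −0.0102 over 9647 genes), and they were not paired in the main tests. The labels do not say whether they share chromatin, and the correlations cannot exclude it. Alternatives covered windows, a score minimum of 5, lists of equal length, 3 of 3 libraries, each library left out in turn and a replicate block. For lists of equal length, each list was cut to the shortest list of the same antibody, so MYC lists stayed shorter than POL2 lists. Software was scipy 1.17.1, pandas 2.3.3, numpy 2.4.6, matplotlib 3.10.9 and pysam 0.24.0 under Python 3.11.15.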

Additional observations from a re-analysis of the deposited data

How the results depend on the processing

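Of 125 alternatives to the 10 tests, 118 kept the direction and 7 reversed it, all 7 for the MYC percentile of summits with POL2 minus that without (1.07). It was −2.23 with scores of at least 5, −3.33 with lists of equal length, −0.933 with POL2 within 250 bp, −1.15 without MYC replicate 2, −1.78 without MYC replicate 3, −1.32 without POL2 replicate 1 and −6.02 without POL2 replicate 2. Since no test could pass 0.05, calls could not change. Sizes did: the promoter share difference was 6.41 with lists of equal length and 9.01 with scores of at least 5, the TSS distance 37 bp to the nearest of all transcript starts, and POL2 near MYC at promoters 1.36 within 100 bp and 27.5 within 500 bp. Of 47 alternatives to the counts, 30 stayed within 1.5 times. Lists of equal length gave 4527 POL2-bound genes, 18 MYC genes without POL2 and 32 MYC sites without POL2, and 3 of 3 libraries gave 3656 POL2-bound genes, 77 of them with MYC, 3 MYC genes and 4 MYC sites without POL2. With POL2 counted within 250 bp, 62 MYC sites had none. The cause was not tested. Fewer or shorter lists allow fewer calls by construction.

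Leaving out each library in turn gave differences of 16.0 to 23.2 percentage points for the promoter share, 110.5 to 125.5 bp for the TSS distance, 14.6 to 15.9 points for the upstream share, 3.07 to 5.16 points for MYC at POL2-bound genes and −19.5 to −14.1 for the POL2 percentile. The side relative to POL2 ranged from −13.0 to −8.12, POL2 near MYC at promoters from 12.2 to 18.3, the MYC percentile from −6.02 to 6.13, the E-box share from −17.9 to −2.39 and the CpG ratio from 0.0182 to 0.0287. The counts ranged from 3676 to 7080 POL2-bound genes, from 122 to 213 with MYC, from 3 to 14 MYC genes without POL2 and from 5 to 26 MYC sites without POL2.

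Same-numbered libraries did not deviate together, but only 518 coding genes had MYC in any list, so this cannot show that pairing is absent. With a replicate block the difference for MYC at POL2-bound genes was 3.49 percentage points, for the POL2 percentile −16.3, for the side −9.53, for POL2 near MYC 14.3, for the MYC percentile 3.8, for the E-box share −13.6 and for the CpG ratio 0.0280. The block left the promoter share, TSS distance and upstream share at their values (exact sign-flip permutation p = 0.25 for each).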

Other observations

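Summits on sequences other than chromosomes 1 to 22 and X were left out of the comparisons. There were 13, 9 and 6 such MYC summits in replicates 1 to 3, of which 10, 8 and 6 had a WT POL2 summit within 1 kb. The best-ranked MYC summit of each library, at rank 1, was among them.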
